A study of Homo sapiens with 52 samples.

Results

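Hypoxia response and glycolysis genes were followed by RNA-seq in a cell line of FP-RMS (fusion-positive rhabdomyosarcoma), a childhood tumour with muscle features driven by the fusion gene PAX3-FOXO1, after treatment with small molecules. The list held 45 gene symbols and was applied by gene name to tables of 27043 genes. By symbol 41 were found, and 40 of them passed the filter on low values, a TPM (a level scaled by transcript length and by the total of the sample) no lower than 1 in any 2 of the 52 samples, and were tested among 16359 genes. CA12 was not tested, since its highest level was 0.10 TPM. ERO1L is an older symbol of ERO1A and its values are given under that name, outside the counts. MXI1P1, INSIG2P1 and KDM3AP1 were not found and are not analysed here.

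The screen held 44 samples taken after 6 h: 20 compounds at 2 concentrations that differed by a factor of 10, 1 sample for each, and DMSO (the solvent) at 0.2% and 0.1% with 2 libraries each. Cpd50, labelled a pan-Jumonji inhibitor, and GSKJ4, labelled against the demethylases JMJD3 and UTX, were given at 5 and 0.5 µM, as was the histone deacetylase (HDAC) inhibitor LAQ824. The other 17 compounds were given at 10 and 1 µM: Bromosporin (bromodomains), SGC-CBP30 (bromodomain of CREBBP and EP300), EZ-005 (EZH2), UNC1999 (EZH1), SGC0946 (DOT1L), UNC0638 (KMT1C), PFI-2 (SETD7), UNC-1215 (L3MBTL3), GSKLSD1, LSD-519 and LSD-690 (LSD1), MC 1568 (HDAC4/5), Merck60 (HDAC1/2), OJI-1 (HDAC8), WT161 (HDAC6), PFI-3 (SMARCA4) and trametinib (MEK1/2). In 2 further experiments, N1302 (HDAC) at 1 µM was set against 1 DMSO sample, and entinostat (HDAC1/2/3) at 1 µM against DMSO at 1, 6 and 24 h, with 1 sample each. All samples came from FP-RMS culture, and the labels name no further genetic change in any group. The cell line label reads RH4 throughout, but screen titles name RH41, so screen samples were never tested against the others. Nothing in the labels ties a dose to a separate culture.

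Library depth, as read numbers recovered from the TPM values, was 10479105 to 77252903 per sample. All 9 rhabdomyosarcoma markers (MYOD1, MYOG and DES among them) reached 1 TPM, with sums of 1271 to 4224 TPM. The 7 markers of other cell types summed to 1.96 to 6.93 TPM, and PTPRC, PECAM1, EPCAM and KRT19 never reached 1 TPM. Cpd50, GSKJ4 and 1 DMSO library of each concentration were sequenced on the same flow cell. Both DMSO libraries of a concentration differed by less than sampling noise once flow cell was allowed for and were averaged, so that DMSO counts as n = 2. Between both DMSO concentrations 0 of the 40 genes was called, with 0% of all genes higher or lower and 3 of the 40 at an unadjusted p under 0.05 (limma).

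Hypoxia-inducible factor (HIF) is a transcription factor made of an alpha subunit, HIF1A or EPAS1 (HIF-2 alpha), and ARNT. The prolyl hydroxylases EGLN1 and EGLN3 use oxygen, iron and the metabolite 2-oxoglutarate to hydroxylate the alpha subunit, which is then bound by VHL and degraded. When oxygen is low the alpha protein persists, and HIF raises genes for glucose uptake, glycolysis, angiogenesis and mitophagy. Jumonji histone demethylases need the same cofactors, which prompts the question whether Cpd50 and GSKJ4 raise these genes. HIF is regulated mainly at the protein level, which RNA-seq does not measure.

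Of the 40 tested genes, 34 were called higher with Cpd50 and none lower, while with GSKJ4 at the same doses 0 were called in either direction. The background was 3.43% of all 16359 genes called higher and 2.27% called lower for Cpd50, and 0% and 0.0122% for GSKJ4 (limma over all genes, Benjamini-Hochberg adjusted p under 0.05). The median difference from DMSO in log2(TPM + 1) was 2.32 for the 40 genes under Cpd50 and −0.05 for all tested genes. For GSKJ4 these medians were 0.0039 and 0.0051, and 0 of the 40 genes had an unadjusted p under 0.05, and 0 were called with voom weights on the recovered reads. Median-ratio scaling of the samples raised the median of all genes by 0.14 and 0.10 for Cpd50 at 5 and 0.5 µM. It moved the calls over all genes from 561 higher and 371 lower (60.2% higher) to 753 and 154 (83% higher), with 35 genes of the list higher. Among the 10 genes of the whole table with the smallest p for Cpd50, 6 were on the list, and among the first 50, 23 were. Both counts include CA9, which passed the filter on low values only through the Cpd50 samples and so had to differ.

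Averaged over the 40 genes, the difference from matching DMSO was 2.48 at 5 µM and 2.28 at 0.5 µM of Cpd50 on the log2(TPM + 1) scale. Without CA9, which passed the filter on low values only through the Cpd50 samples, it was 2.45 and 2.26. With GSKJ4 the mean over the 40 genes was 0.0706 and 0.0048. By role, its means at 5 µM ran from −0.151 (regulators of glycolytic flux) to 0.256 (HIF targets outside glycolysis). At 0.5 µM these were −0.001 and −0.0518. The 36 samples of the other 18 compounds ran from −0.174 (OJI-1, 1 µM) through a median of 0.0676 to 1.03 (WT161, 10 µM), with MC 1568 at 10 µM next at 0.466. The same mean in the 4 DMSO libraries had an SD of 0.0268. Both Cpd50 samples therefore stood above every other treated sample. The 41 genes together made up 3.38% and 3.18% of all TPM with Cpd50 at 5 and 0.5 µM, against 1.17% to 1.23% in DMSO, 1.19% and 1.16% with GSKJ4 and 1.01% to 1.56% with the other compounds.

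**Figure D1:**
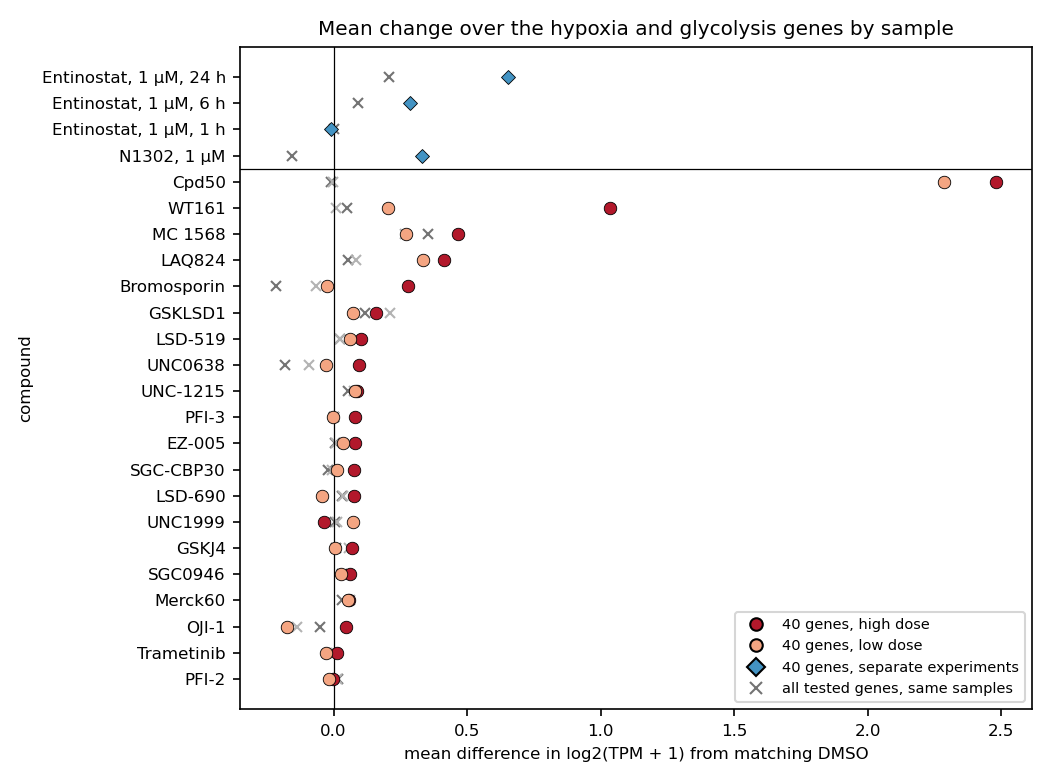
Mean difference in log2(TPM + 1) from matching DMSO over the 40 tested genes (filled symbols, 1 per sample) and over all tested genes (crosses), by compound, with N1302 and entinostat above the line. Cpd50 lies at 2.48 and 2.28 (2.45 and 2.26 without CA9), and WT161 at 10 µM follows at 1.03.

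**Figure D2:**
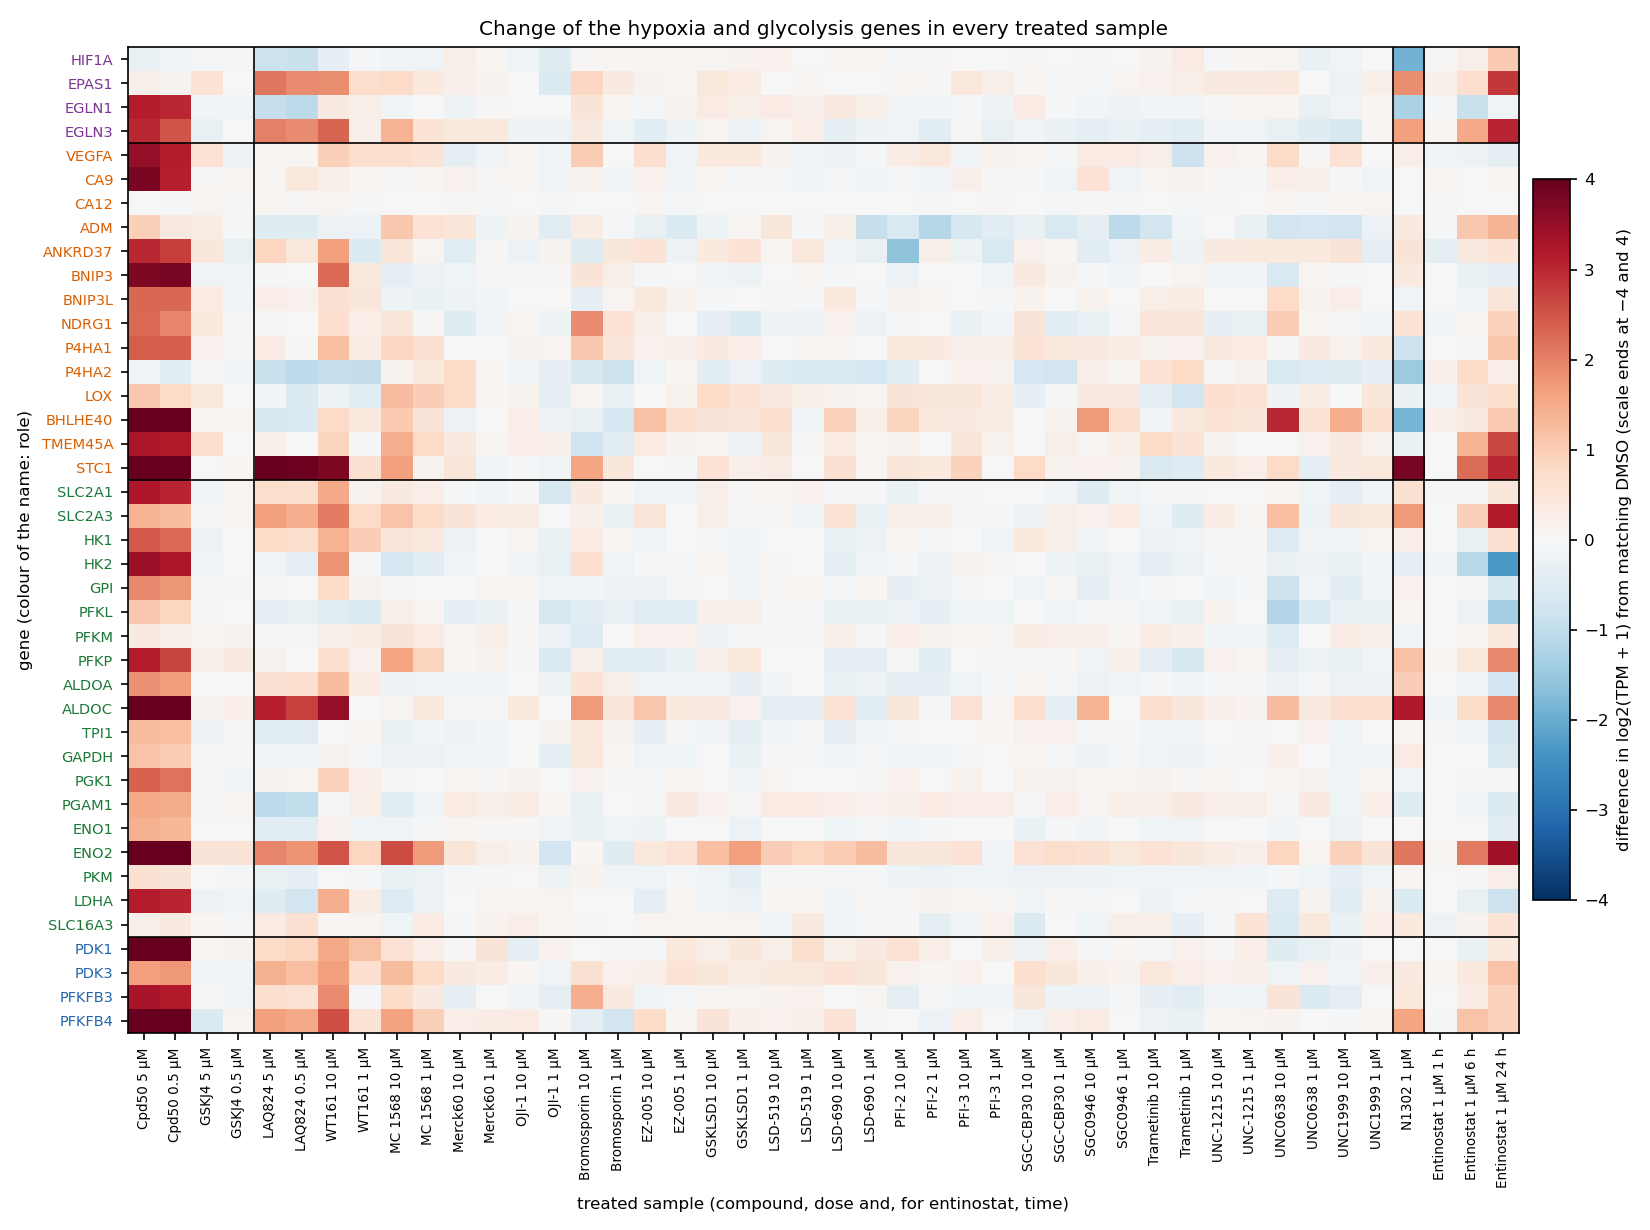
Difference in log2(TPM + 1) from matching DMSO of the 41 genes found (rows, grouped by role) in all treated samples (columns). The first 2 columns, Cpd50 at 5 and 0.5 µM, are red in nearly all rows, while the next 2, GSKJ4, are near white.

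The gene with the smallest p was PDK1, a kinase that switches off pyruvate dehydrogenase and so keeps pyruvate out of the mitochondria. It stood at 3.95 to 4.89 TPM in the 4 DMSO libraries, at 5.204 and 4.70 with GSKJ4 at 5 and 0.5 µM, and at 128 and 122 with Cpd50. The highest of the other 36 samples was 15.8 TPM, so the Cpd50 samples overlapped with none. The log2 difference from DMSO was 4.52 ± 0.19 (SE, n = 2 doses against 2 DMSO concentrations, limma adjusted p = 2.3e-14).

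EGLN1, the main oxygen-sensing prolyl hydroxylase and itself a HIF target, was 16.8 to 17.98 TPM in DMSO, 15.8 and 16.1 with GSKJ4 and 158 and 148 with Cpd50. Its log2 difference was 3.07 ± 0.14 (limma adjusted p = 1.15e-13). PGK1, the first ATP-forming enzyme of glycolysis, was 265 to 278 TPM in DMSO, 250.01 and 253 with GSKJ4 and 1358 and 1266 with Cpd50, a log2 difference of 2.27 ± 0.12. CA9, a carbonic anhydrase of the cell surface widely used as a hypoxia marker, was 0 to 0.105 TPM in DMSO and 0.0859 and 0.178 with GSKJ4, but 13.2 and 8.35 with Cpd50. In read numbers CA9 had 0 or 1 read in each DMSO library and 139 and 93 with Cpd50, and the highest other screen sample had 0.574 TPM. Since CA9 passed the filter on low values only through the Cpd50 samples, it had to differ, and the count is 33 when genes are instead required to have a mean of 1 TPM.

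The stretches before the starts of these 4 genes are shown because they are the leading genes of the response and hold the letters at the core of the hypoxia response element, ACGTG, which HIF recognises. The sequences are RefSeq windows of 250 bases up to the base before the annotated start (build GRCh38.p14), 5′ to 3′ on the gene's strand, with ACGTG or its reverse complement CACGT in capitals. These letters can overlap the E-box CACGTG. The windows are chr2:172555840-172556089 on the plus strand for PDK1 (the second of 2 listed starts, the first holding no match), chr1:231422288-231422537 on the minus strand for EGLN1, chrX:78103998-78104247 on the plus strand for PGK1 and chr9:35673678-35673927 on the plus strand for CA9. In the hg19 coordinates of the deposited tables the genes span 173420101 to 173490351 of chromosome 2 for PDK1, 231499497 to 231560790 of chromosome 1 for EGLN1, 77359666 to 77382324 of chromosome X for PGK1 and 35673915 to 35681154 of chromosome 9 for CA9.
PDK1: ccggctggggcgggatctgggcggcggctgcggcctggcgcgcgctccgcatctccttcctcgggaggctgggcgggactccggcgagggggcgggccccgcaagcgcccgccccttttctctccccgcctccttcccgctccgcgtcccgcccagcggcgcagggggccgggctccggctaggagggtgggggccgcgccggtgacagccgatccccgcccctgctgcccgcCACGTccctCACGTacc
EGLN1: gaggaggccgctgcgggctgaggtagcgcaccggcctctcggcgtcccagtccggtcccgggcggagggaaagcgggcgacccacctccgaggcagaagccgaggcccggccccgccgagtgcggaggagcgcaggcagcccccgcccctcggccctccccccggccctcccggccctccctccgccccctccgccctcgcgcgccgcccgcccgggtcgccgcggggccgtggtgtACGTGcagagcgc
PGK1: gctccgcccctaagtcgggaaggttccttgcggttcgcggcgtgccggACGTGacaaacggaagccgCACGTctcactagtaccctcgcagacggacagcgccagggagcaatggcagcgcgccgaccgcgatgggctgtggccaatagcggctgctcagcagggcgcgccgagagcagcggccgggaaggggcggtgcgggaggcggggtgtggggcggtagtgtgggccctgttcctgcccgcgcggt
CA9: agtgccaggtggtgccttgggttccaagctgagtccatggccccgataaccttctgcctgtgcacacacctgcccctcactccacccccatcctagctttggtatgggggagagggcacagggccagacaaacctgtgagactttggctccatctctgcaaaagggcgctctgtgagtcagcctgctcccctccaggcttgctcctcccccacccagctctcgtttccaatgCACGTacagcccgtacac

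The matches began at bases −17 and −8 for PDK1, −13 for EGLN1, −202 and −183 for PGK1 and −18 for CA9, counted back from the start. HK1 and TMEM45A, next by p, held none in their 7 and 1 windows. Windows were found for 36 of the 41 genes. Taking the first listed window of each gene, 16 of 36 (44.4%) held the letters on either strand, against 18.7% of 27305 genes in the table. All 16 were among the 29 genes with a window that rose with Cpd50 (55.2%). This tally leaves out PDK1, whose match is in its second window. Over any listed window, 22 of 36 (61.1%) held the letters, against 21.7% of all genes, and 20 of the 22 were among the 29 that rose (69%), so that 2 genes that were not called held them too. A match is a description of the sequence, not a binding site.

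Among the HIF subunits and prolyl hydroxylases, the 2 hydroxylases rose with Cpd50 and the 2 alpha subunits were not called. EGLN3, the other inducible hydroxylase, went from 2.15 to 3.39 TPM in DMSO to 28.3 and 20.9 with Cpd50, a log2 difference of 2.77 ± 0.37. HIF1A was 118 to 129 TPM in DMSO and 98.3 and 110 with Cpd50, a log2 difference of −0.24 with a 95% interval of −0.47 to −0.0099 (limma adjusted p = 0.273). Both Cpd50 samples lay below the 4 DMSO libraries, but the difference did not pass the test. EPAS1 stood at 20.6 to 22.2 TPM in DMSO and 24.3 and 24.0 with Cpd50 (interval of the log2 difference −0.32 to 0.67). Of 9 tested genes of oxygen sensing that are not on the list, such as VHL, ARNT and HIF1AN, 0 rose and 0 fell, with a median difference of −0.03.

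Of the 13 tested HIF targets outside glycolysis, 11 rose with Cpd50 and the median log2 difference was 2.89. The 11 include CA9, which had to differ. BHLHE40, a transcriptional repressor, had the largest difference of all 40 genes at 6.28 ± 0.46, from 1.40 to 1.82 TPM in DMSO to 231 and 180 with Cpd50, and with GSKJ4 it was 1.72 and 1.92. The highest of the other 36 samples was UNC0638 at 10 µM with 20.02 TPM. STC1, a secreted glycoprotein, rose from 1.69 to 2.27 TPM to 99.8 and 91.5. VEGFA, the angiogenic growth factor, was 5.32 to 6.23 TPM in DMSO, 9.15 and 4.99 with GSKJ4 and 76.9 and 59.6 with Cpd50, a ratio of the mean TPM of 11.7.

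The mitophagy receptors BNIP3 and BNIP3L both rose. BNIP3 stood at 70.7 to 74.2 TPM in DMSO, 66.7 and 65.8 with GSKJ4 and 1003 and 1028 with Cpd50, a TPM ratio of 13.9. BNIP3L was 150.4 to 156 TPM in DMSO, 189 and 143 with GSKJ4 and 749.6 and 750.4 with Cpd50, a log2 difference of 2.29 ± 0.16. For both, the 5 µM and 0.5 µM samples of Cpd50 were nearly equal.

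The membrane protein TMEM45A was 28.5 to 35.3 TPM in DMSO, 46.8 and 33.4 with GSKJ4 and 299 and 305 with Cpd50, a log2 difference of 3.23 ± 0.21. P4HA1, a subunit of the collagen prolyl hydroxylase, was 97.1 to 101 TPM in DMSO, 112 and 95.1 with GSKJ4 and 529 and 523 with Cpd50, a log2 difference of 2.40 ± 0.18. Its relative P4HA2 did not follow, at 2.10 to 2.78 TPM in DMSO and 2.12 and 1.52 with Cpd50 (adjusted p = 0.494). ANKRD37 and NDRG1 rose by 2.89 ± 0.52 and 2.11 ± 0.32 on the log2 scale. LOX, the collagen cross-linking enzyme, rose by 0.94 ± 0.21, and its 59.3 and 54.9 TPM with Cpd50 lay below the 66.8 TPM of MC 1568 at 10 µM. That call was lost without the 5 µM sample (limma adjusted p = 0.0803). ADM, a vasodilator peptide, was 1.15 to 2.05 TPM in DMSO and 3.80 and 2.72 with Cpd50 and missed the threshold (adjusted p = 0.235). ERO1A, the oxidase of disulfide formation, stood at 31.0 to 33.5 TPM in DMSO, 27.9 and 31.5 with GSKJ4 and 108 and 105 with Cpd50, a log2 difference of 1.69 ± 0.14 (limma adjusted p = 3.14e-09).

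All 4 regulators of glycolytic flux rose with Cpd50. PFKFB4, which makes and breaks the activator of phosphofructokinase, was 3.96 to 5.06 TPM in DMSO, 2.59 and 5.18 with GSKJ4 and 169 and 141 with Cpd50, a log2 difference of 4.81 ± 0.36. Its relative PFKFB3 rose from 25.9 to 27.2 TPM to 265 and 246. PDK3, a related pyruvate dehydrogenase kinase, rose less than PDK1, from 2.12 to 2.39 TPM to 8.99 and 9.76, so that PDK1 went from 64.6% to 69.7% of the TPM of the pair in DMSO to 93.4% and 92.6%.

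Of the 19 genes of glucose transport, glycolysis and lactate export, 17 rose with Cpd50, with a median log2 difference of 1.75. At the entry, the glucose transporter SLC2A1 stood at 67.6 to 74.3 TPM in DMSO, 64.8 and 78.7 with GSKJ4 and 661 and 612 with Cpd50, a log2 difference of 3.13 ± 0.24. SLC2A3, the high-affinity transporter, rose from 0.526 to 1.03 TPM to 3.48 and 3.58, a call lost without either Cpd50 sample (adjusted p = 0.0676 without 5 µM and 0.0547 without 0.5 µM). Hexokinase 1, HK1, was 60.2 to 62.2 TPM in DMSO, 53.5 and 63.0 with GSKJ4 and 340.1 and 299.8 with Cpd50, a log2 difference of 2.36 ± 0.14. HK2, the inducible hexokinase, rose from 37.6 to 41.7 TPM to 428 and 405, and its share of the 2 hexokinases from 38.4% to 40.1% to 55.7% and 57.5%.

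Further down the pathway all enzymes but PFKM rose. GAPDH, the glyceraldehyde phosphate dehydrogenase, stood at 3199 to 3323 TPM in DMSO and 7147 and 6642 with Cpd50, a TPM ratio of 2.11. ENO1, the main enolase, was 2021 to 2110 TPM in DMSO, 2029 and 2036 with GSKJ4 and 5477 and 5169.9 with Cpd50, a log2 difference of 1.36 ± 0.10. PKM, the last enzyme of the pathway, rose by 0.58 ± 0.07, the smallest change called. LDHA, which turns pyruvate into lactate, rose from 396 to 411 TPM to 3521 and 3434, with 342 and 369 under GSKJ4, a TPM ratio of 8.59.

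ALDOC and ENO2, the neuronal forms of aldolase and enolase, rose from 2.40 to 3.46 and 2.51 to 3.62 TPM to 194 and 144 and to 104 and 76.8. Their log2 differences were 5.44 ± 0.59 and 4.45 ± 0.35. Even so, ALDOA and ENO1 still made up 91.6% and 98.1% of the TPM of their pairs at 5 µM, against 99.4% to 99.6% and 99.8% to 99.9% in DMSO. PFKP went from 3.63% to 4.45% of the phosphofructokinase TPM to 18.01% and 17.2%, while PFKM, the muscle form, was not called at 84.4 to 92.7 TPM in DMSO and 114 and 105 with Cpd50 (adjusted p = 0.292, and called at a log2 difference of 0.424 after median-ratio scaling). GPI, PFKL, ALDOA, TPI1 and PGAM1 rose by 0.97 to 1.84 on the log2 scale. SLC16A3, the lactate exporter, was 0.584 to 0.993 TPM in DMSO and 1.06 and 1.07 with Cpd50, with an interval of −0.23 to 0.81. GAPDH, PGK1, LDHA and other glycolysis genes have processed pseudogenes, so that their levels are less certain where reads are shared with such copies.

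**Figure D3:**
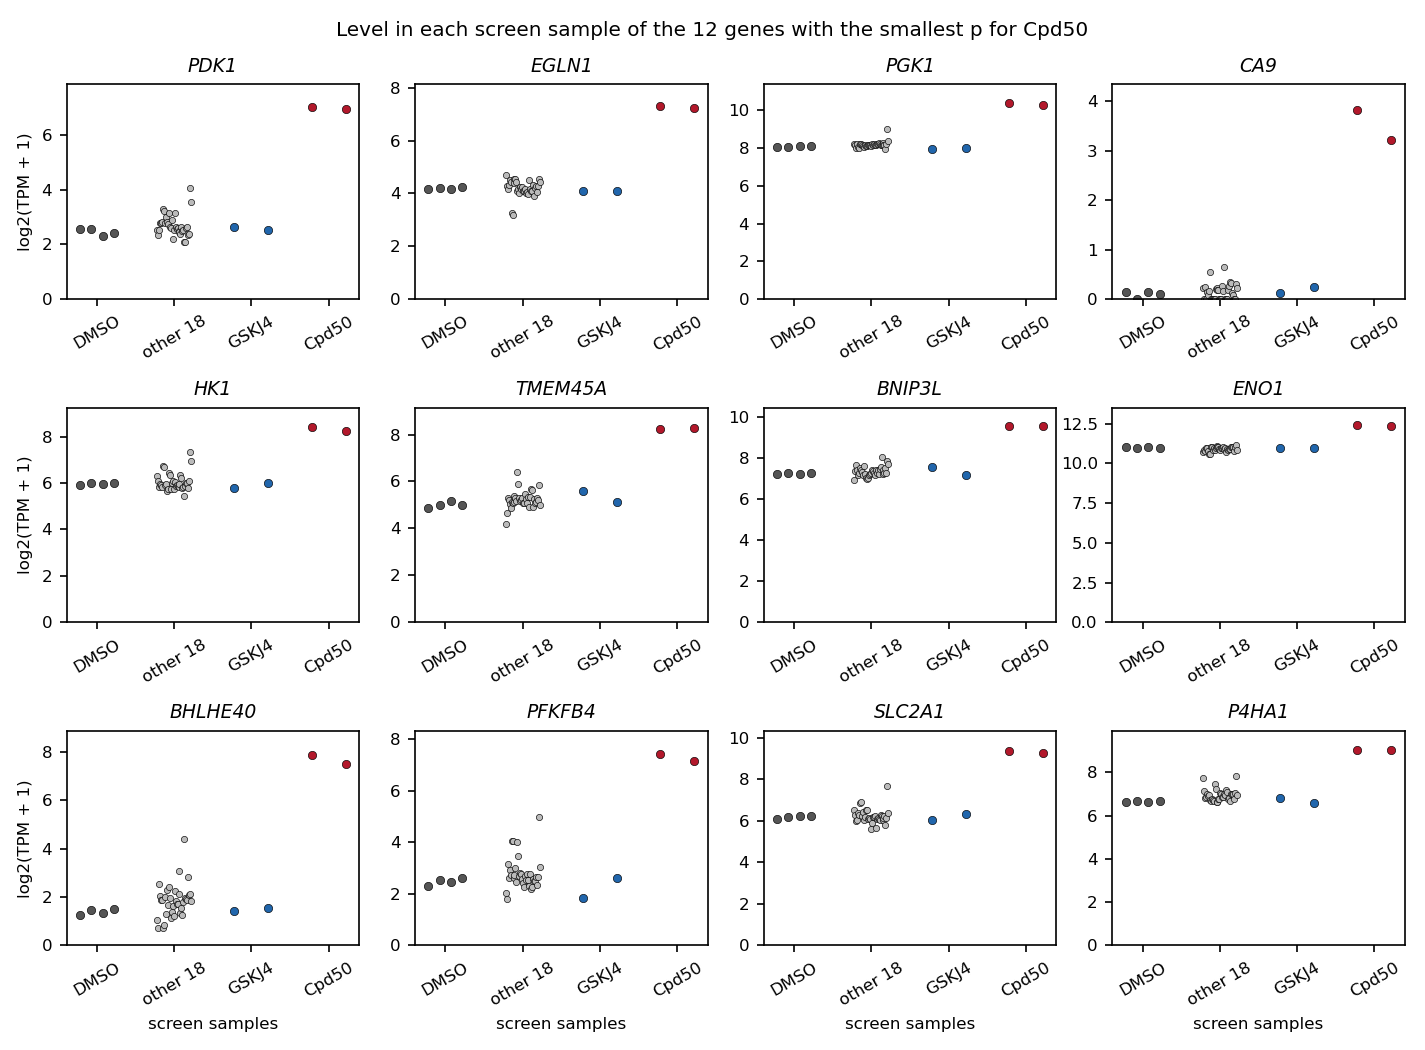
log2(TPM + 1) in each of the 44 screen samples for the 12 genes with the smallest p for Cpd50 (4 DMSO, 36 of the other 18 compounds, 2 GSKJ4, 2 Cpd50). In each panel both Cpd50 samples lie above the other 42 samples, which for CA9 had to be so.

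Over all 41 genes, both Cpd50 samples exceeded every other screen sample in 31. This count was not made over all tested genes, so it has no background and is a description only. The 31 genes and the counts above DMSO that follow include CA9. It passed the filter on low values only through the Cpd50 samples and so had to differ. At 5 µM of Cpd50, 38 of 40 genes (95%) lay above all 4 DMSO libraries, against 28.6% of all tested genes, and 1 (2.5%) below, against 43.5%. At 0.5 µM, 38 (95%) lay above, against 27.9%, and 2 (5%) below, against 41.4%. The 2 doses were close: over the 34 genes called, the change at 5 µM minus that at 0.5 µM had a median of 0.173 on the log2 scale, from −0.125 (PDK1) to 0.661 (CA9), and was above 0 in 31. The changes ran from 0.623 (PKM) to 6.49 (BHLHE40) at 5 µM and from 0.529 to 6.07 for the same 2 genes at 0.5 µM. With 1 sample per dose this step has no replicate check.

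GSKJ4 at the same doses gave 0 called genes. Each interval given here is for the mean of its high and low dose, with a spread estimated over all compounds and DMSO. It does not bound the change at either dose alone. Separate cultures are not known, so the spread may be technical and the intervals set no limit on the biological effect. In 35 of 40 genes the 95% interval of the log2 difference from DMSO lay within 1 either way. It reached past 1 for ENO2 (−0.21 to 1.25), ALDOC (−1.01 to 1.40), BHLHE40 (−0.84 to 1.03), ANKRD37 (−0.98 to 1.15) and STC1 (−1.03 to 1.083), all scarce in DMSO. For PDK1 the interval was −0.28 to 0.50, for VEGFA −0.46 to 0.85 and for LDHA −0.68 to 0.31. At 5 µM, 13 of 40 genes (32.5%) lay above all 4 DMSO libraries, against 31.4% of all tested genes, and 13 (32.5%) below, against 34.4%. At 0.5 µM, 12 (30%) lay above, against 33.4%, and 14 (35%) below, against 21.7%.

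In the direct contrast of Cpd50 with GSKJ4, 33 of 40 genes were higher with Cpd50 and none lower, against 2.73% and 0.947% of all genes. The median log2 difference was 2.36, and −0.08 over all genes. The 7 genes not called were those not called against DMSO and LOX, at 0.72 with an interval of 0.29 to 1.14 and an adjusted p of 0.0502. Against the mean of the other 19 compounds, 35 genes were higher with Cpd50 and none lower, against 7.34% and 11.9% of all genes. The 34 called against DMSO were joined by ADM (0.90 ± 0.21, limma adjusted p = 0.00297). Both the 33 and the 35 include CA9, which passed the filter on low values only through the Cpd50 samples. GSKJ4 set against the mean of the other compounds had 0 genes higher and 0 lower (0.0122% and 0.0245% of all genes), with 9 of the 40 at an unadjusted p under 0.05 (limma). These contrasts do not use the DMSO levels, though the DMSO columns are part of the fit that gives the spread. Against DMSO of their own flow cell alone, 34 genes were higher and 0 lower for Cpd50, against 3.41% and 2.01% of all genes. For GSKJ4 0 were called, against 0% and 0.0122%.

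**Figure D4:**
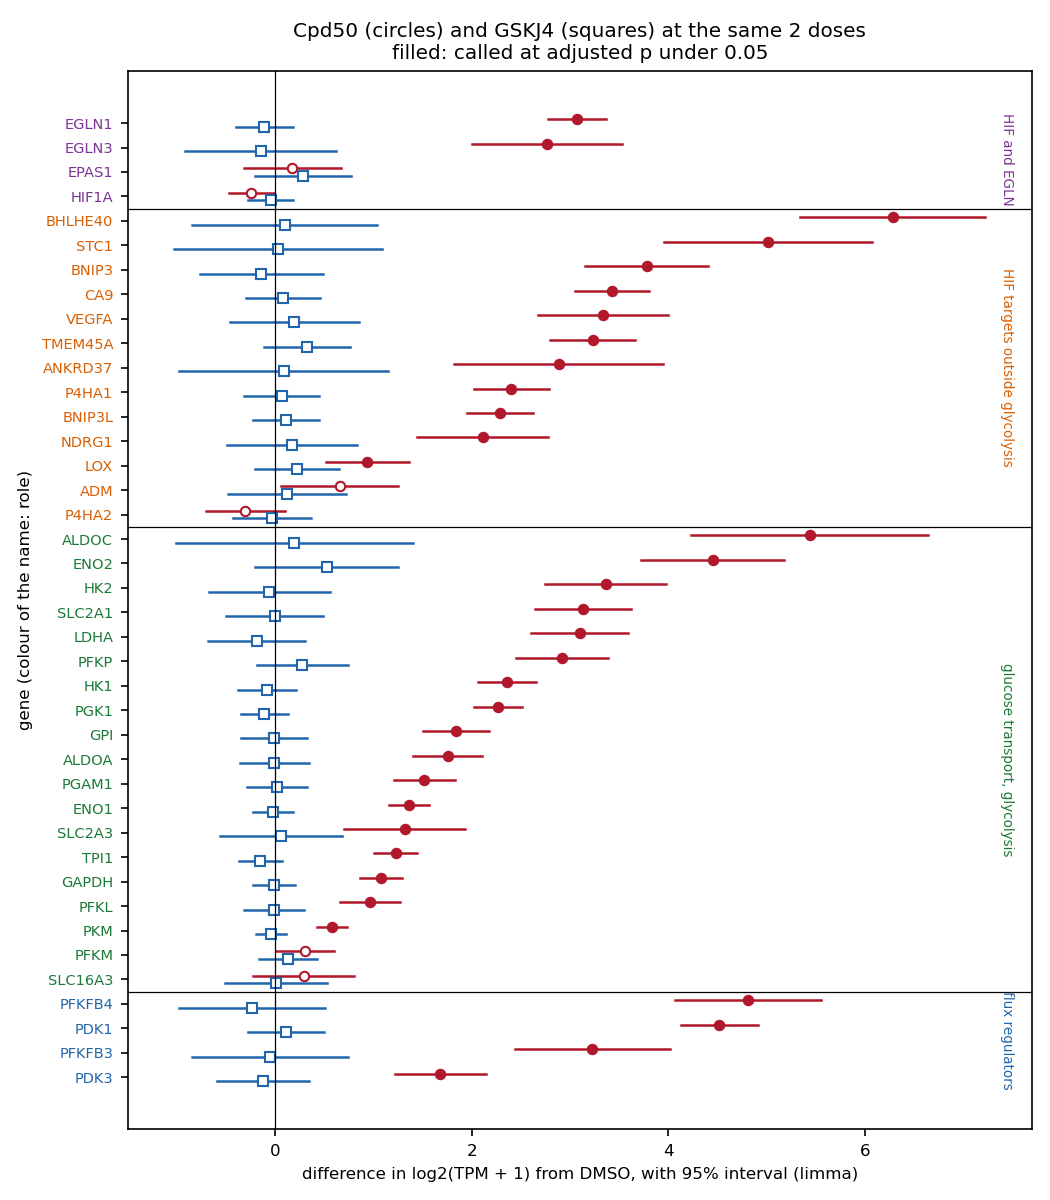
Difference in log2(TPM + 1) from DMSO with its 95% interval (limma) for Cpd50 (circles) and GSKJ4 (squares), gene by gene and grouped by role, filled where called. The intervals of both compounds are apart for PDK1 (4.52 against 0.11) and most others and overlap for HIF1A, EPAS1, ADM, P4HA2, PFKM, SLC16A3 and LOX.

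On a list of other HIF targets that holds none of the 41 genes, 30 of 35 tested rose with Cpd50 and 0 fell (median log2 difference 1.67). The shares of all tested genes were 3.43% and 2.27%. With GSKJ4 0 were called (median 0.029), against 0% higher and 0.0122% lower of all tested genes. This list was chosen with earlier results of these data known, so it is no independent check. AK4, an adenylate kinase of mitochondria, was 3.08 to 4.18 TPM in DMSO and 90.6 and 94.3 with Cpd50. VLDLR, a lipoprotein receptor, went from 10.9 to 11.2 TPM to 69.7 and 67.1, BHLHE41, a repressor related to BHLHE40, from 0.0403 to 0.13 TPM to 6.20 and 5.94, and PLOD2, a collagen lysyl hydroxylase, from 17.9 to 20.6 TPM to 274 and 244. MXI1, INSIG2 and KDM3A, the genes for which the pseudogene symbols are named, rose by 2.47 ± 0.25, 2.83 ± 0.27 and 1.42 ± 0.29. KDM3A, KDM4B, KDM4C and JMJD6, which are Jumonji-domain enzymes themselves, were among the genes that rose. By contrast, of 28 tested genes of glycolysis and pyruvate metabolism that are not on the list, 1 rose and 1 fell. TXNIP, an inhibitor of glucose uptake, rose by 1.43 ± 0.20, and BPGM, the bisphosphoglycerate mutase, fell by 0.71 ± 0.20.

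Of 8 iron-responsive genes only TFRC, the transferrin receptor and also a HIF target, rose with Cpd50, from 289 to 300.2 TPM to 581 and 603. Of 14 ATF4 stress targets 3 rose (VLDLR, DDIT4 and STC2, which stand on the list of HIF targets too), with a median of −0.07. With GSKJ4 0 genes of either list were called, against 0% of all genes higher and 0.0122% lower. The median for the ATF4 targets was 0.45 all the same, against 0.0051 over all tested genes. The 9 rhabdomyosarcoma markers were not called with Cpd50 or GSKJ4, with medians of −0.06 and 0.0018.

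Among the other 18 compounds, 11 had 0 of the 40 genes called, as had GSKJ4. Beside these counts of 0, the shares of all genes called higher and lower were 1.33% and 1.37% for trametinib, 1.07% and 0.336% for LSD-690, 0.544% and 0.0428% for LSD-519 and 0.147% and 0.318% for PFI-2. They were 0.128% and 0.055% for SGC0946, 0.0856% and 0.0856% for OJI-1, 0.0122% and 0.0611% for EZ-005 and 0.0245% and 0.0917% for Merck60. They were 0.0245% and 0.0428% for UNC1999, 0.0183% and 0.0245% for PFI-3 and 0.0306% and 0.0183% for UNC-1215. Of the 40 genes 0 to 6 had an unadjusted p under 0.05 (limma) over these 12 compounds. Calls among the remaining 7 were mostly with compounds against HDACs.

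WT161 raised 19 genes and lowered 2, against 17.7% and 14.3% of all genes, with a median log2 difference of 0.57 for the 40 genes and 0.03 for all. The leading genes were HK1, with 163 and 124 TPM at 10 and 1 µM (log2 difference 1.19 ± 0.14), PDK1, with 15.8 and 10.6 TPM, EPAS1, with 78.5 and 35.7 TPM, and PDK3, with 9.05 and 4.16 TPM. P4HA2 and PFKL were lower, by −0.94 ± 0.19 and −0.50 ± 0.15. The samples of the 2 doses lay further apart than those of Cpd50: the mean over the 40 genes was 1.03 at 10 µM and 0.203 at 1 µM. BNIP3 stood at 357 and 95.5 TPM, LDHA at 1090 and 499 and HK2 at 134 and 39.2. As for Cpd50, 1 sample per dose gives this step no replicate check. With only WT161 and DMSO in the fit 0 of all 16359 genes were called, and against the other compounds of its flow cell the call for PFKL was lost.

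LAQ824 raised 12 and lowered 8 of the 40 genes, against 28.4% and 24.6% of all genes, so that the shares called were 30% and 20%. STC1 went to 47.9 and 48.0 TPM (log2 difference 4.04 ± 0.51), EPAS1 to 93.9 and 82.8 TPM (2.00 ± 0.24), ENO2 to 14.6 and 13.6 TPM and PDK3 to 7.67 and 6.58 TPM. HIF1A fell to 66.5 and 66.0 TPM (−0.88 ± 0.11, limma adjusted p = 8.04e-07), and its share of HIF1A plus EPAS1 from 85.0% to 85.5% in DMSO to 41.4% and 44.3%. EGLN1 fell to 8.56 and 7.96 TPM while EGLN3 rose to 13.5 and 13.2, so that EGLN3 became the more abundant of the pair. PGAM1 and P4HA2 fell as well, by −1.02 ± 0.15 and −0.96 ± 0.19. LDHA, ENO1, TPI1 and PKM were lower too, the opposite direction to Cpd50, though the 20% called lower was under the 24.6% of all genes. After median-ratio scaling 12 of the 40 genes were higher and 6 lower, against 30.8% and 23.1% of all genes, so some lower calls depend on the scaling.

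MC 1568 raised 11 genes and lowered 1, against 19.6% and 2.92% of all genes, and its mean over the 40 genes, 0.466 and 0.272, was near that over all tested genes, 0.354 and 0.269. ENO2 was 23.4 and 12.7 TPM, PFKP 22.4 and 15.6, LOX 66.8 and 62.6 and TMEM45A 83.3 and 57.8 at 10 and 1 µM. PKM was lower, by −0.25 ± 0.07, a call lost after median-ratio scaling and with only MC 1568 and DMSO in the fit. Of the 9 rhabdomyosarcoma markers, 8 fell with LAQ824 (median log2 difference −1.59), 7 with WT161 (−0.88) and 1 with MC 1568, with which 1 rose, and the part of this in the results above was not tested. In bulk samples, fewer cells of a type and less RNA per cell cannot be told apart. LAQ824 and MC 1568 gave the same member counts against DMSO of their own flow cell. The shares of all genes were then 28% higher and 25.1% lower for LAQ824 and 19.4% and 3.04% for MC 1568. WT161 was sequenced on a flow cell with 14 compounds and no DMSO. Against the other compounds of that flow cell it had 23 of the 40 genes higher and 2 lower, against 24% and 19% of all genes. Merck60 and OJI-1, also labelled against HDACs, had 0 called.

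Bromosporin raised P4HA1, NDRG1 and TPI1 and lowered P4HA2 and TMEM45A, fewer than its background of 12.4% and 23.4% in this fit. After median-ratio scaling 7 of the 40 genes were higher and 1 lower, against 15.9% and 20.2% of all genes. The higher calls were then no longer fewer than the background. NDRG1 stood at 70.6 and 28.0 TPM at 10 and 1 µM, against 17.7 to 18.998 in DMSO. UNC0638 raised BHLHE40 (20.02 and 2.89 TPM) and lowered PFKL and GPI, against 2.37% and 9.76% of all genes. GSKLSD1 raised ENO2 and lowered PKM, against 2.81% and 0.703%, and SGC-CBP30 lowered P4HA2 alone, against 2.68% (0 of 40 higher, against 0.727%). Each call named for these 4 compounds was lost with only the compound and DMSO in the fit. P4HA2, called lower by 4 compounds and higher by none, and ENO2, called higher by 4, were the genes most often called outside Cpd50, and VEGFA, CA9, ANKRD37, PFKFB3, GAPDH and SLC16A3 were called by none of the other 19.

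N1302 and entinostat have 1 sample per group, so that their values carry no test and changes are counted past 2-fold on the log2(TPM + 1) scale. With N1302, 8 of 40 genes were up and 4 down, against 11.6% and 19.3% of all genes. The largest increases were STC1, from 0.565 TPM in its DMSO to 20.5, ALDOC, from 2.95 to 35.7, ENO2, from 2.55 to 14.4, and EPAS1, from 11.9 to 46.2. The largest decreases were HIF1A, from 237 to 63.1 TPM, BHLHE40, from 6.26 to 0.984, P4HA2, from 2.79 to 0.387, and EGLN1, from 22.5 to 8.82. In the 6 h DMSO sample of the entinostat experiment, HIF1A was 123 TPM, BHLHE40 2.07, P4HA2 0.708 and EGLN1 16.1. There STC1 was 6.03 TPM, ALDOC 3.64, ENO2 2.10 and EPAS1 8.90. The directions are the same against either DMSO sample, but the sizes depend on which is used.

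With entinostat 0 of 40 genes had passed 2-fold at 1 h (background 0.66% up and 0.581% down). The largest differences at 1 h were between −0.36 (ANKRD37) and 0.21 (BHLHE40). At 6 h 6 were up and 1 down (5.13% and 0.947%), led by STC1, from 6.03 to 32.2 TPM, ENO2, from 2.10 to 12.2, EGLN3, from 1.44 to 5.92, and TMEM45A, from 18.4 to 50.1, with HK2 down from 53.7 to 24.1. EGLN1, LDHA and HK1 were lower by less. At 24 h 13 were up and 2 down (16.4% and 6.06%). ENO2 went from 2.36 to 33.9 TPM, SLC2A3 from 0.648 to 13.9, EGLN3 from 1.59 to 20.5 and STC1 from 8.11 to 73.3. HK2 was down from 49.3 to 9.20 TPM, PFKL from 95.6 to 37.6, LDHA from 518 to 289 and ALDOA from 597 to 347.

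HIF1A was 264 TPM against 128 in DMSO after 24 h of entinostat, 143 against 123 at 6 h and 137 against 133 at 1 h, while with N1302 at 6 h it was below its DMSO. Times and doses differ, so these values stand side by side with no comparison. The mean over the 40 genes was 0.331 for N1302 and −0.0091, 0.284 and 0.652 for entinostat at 1, 6 and 24 h, while the mean over all genes was −0.154, 0.00012, 0.0907 and 0.208.

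**Figure D5:**
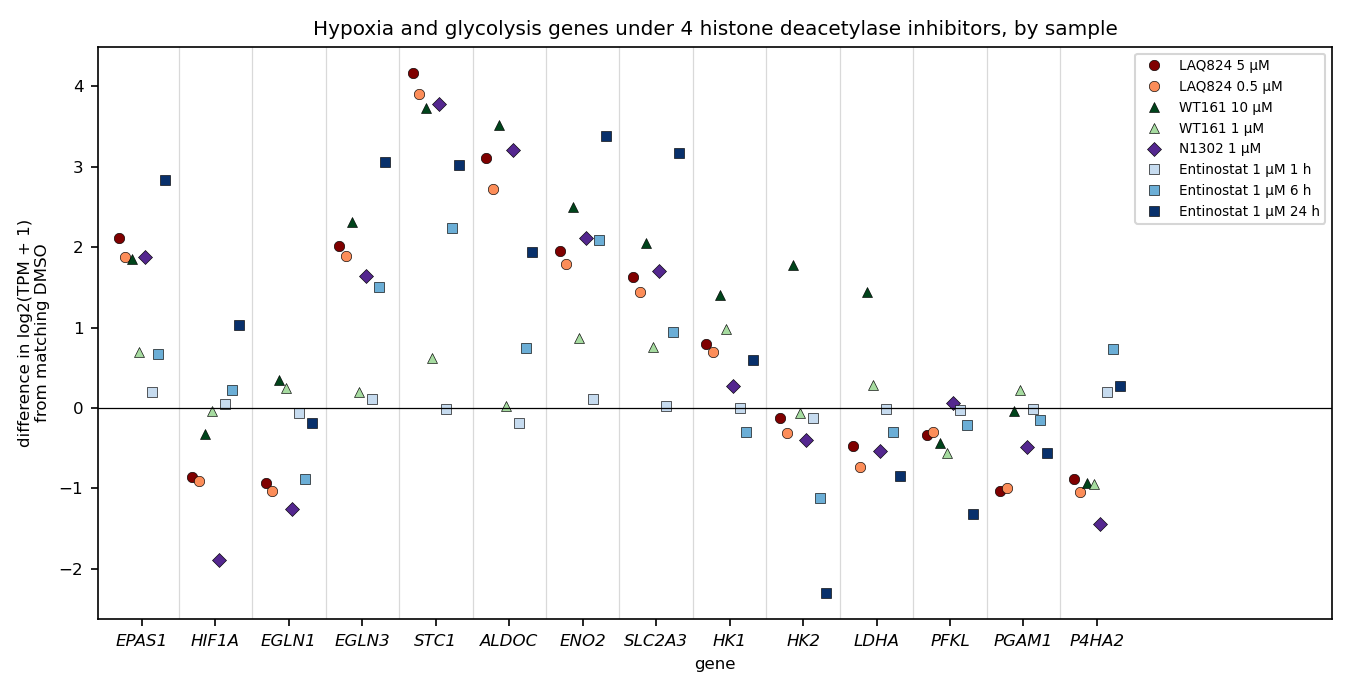
Difference in log2(TPM + 1) from matching DMSO for 14 genes named in the text, with 1 symbol per sample of LAQ824, WT161, N1302 and entinostat. ENO2 lies above 0 in all 8 samples, EPAS1 too, and HK2 reaches −2.30 with entinostat at 24 h.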

How the data were processed

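RNA-seq of FP-RMS cells was analysed from 52 gene tables, 1 per sample. The paper describes poly-A selection, alignment to hg19 with STAR and gene expression from RSEM with a UCSC reference. The sample records instead name STAR and edgeR as the processing tools, and not RSEM. The deposited values are TPM, which the authors scaled by transcript length and sequencing depth, and each sample had the same total. Samples were grouped from the labels. The gene list, the further lists and the rule for named genes (the 12 smallest p for Cpd50, the 4 smallest in each direction for other compounds, the 4 largest changes each way for N1302 and entinostat, the 4 smallest each way from the further lists for Cpd50) were chosen with earlier results of these data known.

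Levels were taken as log2(TPM + 1), so differences of low genes are understated. Genes whose TPM reached 1 in any 2 samples were tested with limma 3.58.1 (R 4.3.3, mean-variance trend) over 42 columns, 20 compounds and DMSO with 2 columns each, with Benjamini-Hochberg adjustment over 16359 genes and a threshold of 0.05. The high and the low dose of a compound served as its replicates, a choice made here, so a p also covers the dose step. Nothing says that samples came from separate cultures, and the spread may be technical. The 2 libraries of a DMSO concentration were averaged, since after allowing for concentration and flow cell their counts varied by 0.92 of the sampling noise.

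TPM values were whole multiples of 1 step per gene in 23643 of 23645 genes (99.99%, tolerance 0.001), which gave read numbers for depth and for an alternative with voom weights, which called 905 genes higher and 784 lower for Cpd50. The fit was tried on simulated data with 100 genes changed by 1 and 100 by 2 on the log2 scale in Cpd50. It called 64 and 96 of them, and 8 unchanged genes. A gene that is not called may therefore still differ by 2-fold. Mean changes used matching DMSO (0.2% for high doses, 0.1% for low, own DMSO elsewhere). Promoter windows came from RefSeq (GRCh38.p14). INSIG2, MXI1, KDM3A and the other Jumonji genes, ERO1A and the examples beyond this rule were named after their values were seen. Alternatives were another pseudocount (0.1), other filters, median-ratio scaling, all 4 DMSO libraries, dose level as a block, single compounds with DMSO, and leaving out each DMSO, Cpd50 and GSKJ4 sample. DMSO of the same flow cell was planned as a reference for Cpd50 and GSKJ4. The flow cell references for the other compounds and the voom weights were added after seeing the data.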

Additional observations from a re-analysis of the deposited data

Results flagged for a closer look

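The responses to Cpd50 and GSKJ4, given at the same doses and time, differed by a test of the difference itself in 33 of the 40 tested genes (limma, adjusted p under 0.05), each higher with Cpd50. In the 12 with the smallest p the log2 difference of Cpd50 minus GSKJ4 was 6.19 for BHLHE40, 5.05 for PFKFB4, 4.41 for PDK1 and 3.35 for CA9. It was 3.29 for LDHA, 3.18 for EGLN1, 3.14 for SLC2A1 and 2.90 for TMEM45A, and 2.44, 2.38, 2.18 and 1.39 for HK1, PGK1, BNIP3L and ENO1. In each of these genes both Cpd50 samples were above both GSKJ4 samples. For CA9 this had to be so, since it passed the filter on low values only through the Cpd50 samples. The response to Cpd50 also differed from the mean of the other 19 compounds in 35 genes by the same kind of test.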

How the results depend on the processing

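The number of the 40 genes called for Cpd50 was 32 to 34 without single DMSO, Cpd50 or GSKJ4 samples, that for GSKJ4 0 throughout, that for Cpd50 minus GSKJ4 32 to 34, that for Cpd50 minus the other compounds 32 to 35, and that between DMSO concentrations 0. Over all 20 compounds 98 calls were made, 94 to 100 without single samples and 60 where a log2 change of at least 1 was also required. For Cpd50, 32 genes were called under every setting they were tested in, of 17. SLC2A3 and LOX were lost as given above.

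Mean changes over the genes moved with the pseudocount of 0.1 and with scaling, to 2.69 and 2.61 for Cpd50 at 5 µM, 2.47 and 2.38 at 0.5 µM, −0.218 and −0.113 for the lowest other screen sample, 0.39 and 0.625 for N1302, 0.42 and 0.396 for entinostat at 6 h and 0.813 and 0.738 at 24 h. The highest other screen sample moved to 1.15 with the pseudocount and GSKJ4 at 5 µM to 0.12 with scaling. With both 6 h DMSO samples as reference, N1302 was at 0.414 and entinostat at 0.201. The cause was not tested.

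Of 1186 values of named genes under alternatives, 1146 kept direction and side of the threshold, 38 lost the call, 2 gained it (PFKM for Cpd50) and 0 reversed. GPI with UNC0638 was lost without replicate 1 of either DMSO concentration (log2 difference −0.48 and −0.468) and without any Cpd50 or GSKJ4 sample (−0.494 each), PKM with GSKLSD1 without the same DMSO libraries (−0.258 and −0.259), and P4HA2 with SGC-CBP30 without replicate 2 of DMSO 0.1% (−0.653).

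With the replicate number of the DMSO libraries as a block, 0 genes differed between the concentrations, as without it. Replicate numbers of DMSO follow the flow cell. Doses serve as replicates, so the spread behind a p includes the dose step. Genes near 1 TPM, such as SLC16A3, SLC2A3 and ADM, have wide intervals.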

Other observations

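The DMSO samples of the N1302 and entinostat experiments carry RH4 in their titles and those of the screen RH41, and the levels of the genes are given side by side with no test, since line, time and experiment cannot be told apart. Of the 40 genes, 9 were lower in all 4 RH4-titled DMSO samples than in the 4 RH41-titled libraries (22.5%, against 29.4% of all tested genes) and 5 were higher (12.5%, against 12.5%). PGK1 stood at 781 to 1114 TPM in the RH4-titled and 265 to 278 in the RH41-titled samples, and LDHA at 518 to 593 and 396 to 411. LOX was 2.38 to 8.91 TPM against 27.3 to 32.3, EPAS1 7.28 to 11.9 against 20.6 to 22.2 and PKM 1960 to 2365 against 3270 to 3472.

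Among the HIF targets outside the list, FAM162A, a mitochondrial protein, and DDIT4, an inhibitor of mTORC1, reached 673 and 598 TPM and 844 and 743 TPM with Cpd50 at 5 and 0.5 µM, from 26.3 to 32.5 and 37.4 to 41.0 in DMSO. The glycogen genes GYS1, GBE1 and PPP1R3C rose by 1.90 ± 0.20, 1.42 ± 0.16 and 3.80 ± 0.46 on the log2 scale (limma). These genes were chosen after their values were seen.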
